A study of Mus musculus with 51 samples.

Results

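The growth hormone and IGF axis was followed through 10 genes, taken by name from the rows of a mouse expression matrix: Ghr, Stat5b, Socs2, Igf1, Igfals, Igfbp1, Igfbp2, Igfbp4, Insr and Irs2. All 10 were among the 33773 gene symbols of the matrix, and all 10 passed the filter on low values in both sets of libraries. The rule names the genes and sets no threshold on their values; they were proposed with earlier results of these data known.

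In the liver, growth hormone binds its receptor on hepatocytes, the kinase Jak2 is activated, and the transcription factor Stat5b enters the nucleus and switches on genes such as Igf1 and Igfals. IGF1 then circulates bound to binding proteins, and the acid-labile subunit made from Igfals holds it in a long-lived complex. Insulin works beside this axis through its receptor and Irs2, and by restraining FoxO factors it lowers Igfbp1. In rodents the pattern of growth hormone release differs between the sexes, which gives many liver genes a male or female bias.

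The study asked what adult hepatocytes express once the FoxA transcription factors are lost. RNA was sequenced from hepatocytes of 4 groups and from whole liver of 2 groups. FoxA triple null libraries (n = 4) came from FoxA3-/- mice with floxed Foxa1 and Foxa2, given at 8 weeks of age an adeno-associated virus that expresses Cre from the hepatocyte-specific Tbg promoter. FoxA3 null libraries (n = 4) also lack FoxA3. The design text describes controls of the same genotype that received virus with GFP, and its wording fits this group, although the labels of the group give only FoxA3 null. The undeleted FoxA1/A2 lox group had 3 libraries. The FoxA1/A2 Cre alfp group (n = 4) has Foxa1 and Foxa2 deleted while FoxA3 is kept, and the labels do not spell out its Cre driver. Liver libraries were 2 of HNF4a control and 4 labelled HNF4a null, deleted in adult liver. The age of the mice outside the triple null group, and whether libraries came from separate animals, are not given in the sources used here, so the p-values measure the spread between these libraries.

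The deleted genes served to check the labels. RPKM (reads scaled by gene length and depth) of Foxa3 reached at most 0.0112 in FoxA3 null libraries and 0.0114 in triple null libraries, against 19 to 34.5 in lox and Cre alfp libraries. Foxa2 fell from 11.1 to 20.6 RPKM in FoxA3 null to 0.243 to 0.47 after the deletion. Foxa1 was at 3.04 to 3.63 RPKM in the triple null, lower than the 6.14 to 10.1 of FoxA3 null but higher than the 1.14 to 1.34 of Cre alfp. Hnf4a went against its label: the controls had 118 and 126 RPKM, and the 4 libraries labelled HNF4a null had 487 to 545. Absolute depth is unknown; relative depth, read from the spacing of low values with the shallowest library set to 1, was 2.01 to 4.07 in hepatocyte libraries and 1 to 1.1 in liver libraries. Xist was at no more than 0.363 RPKM and the Y-linked Ddx3y at no less than 14.9 in all 21 libraries, the pattern of male tissue.

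Cell type markers moved with the groups. The summed RPKM of 7 hepatocyte markers was 11947 to 17185 in the triple null, while FoxA3 null had 40331 to 46131. In liver it was 25187 and 25627 in the controls but 12080 to 13546 where HNF4a null is the label, with 5 of the 7 lower by limma and Cps1 higher (1.02, adjusted p = 0.00252). The sum of 5 neutrophil markers was 9.15 to 110 in the triple null, and 0.702 to 1.67 with only FoxA3 missing. Of these markers S100a8 (log2 difference 3.48, limma, adjusted p = 0.000825) and S100a9 (2.69, adjusted p = 3.28e-05) were higher in the triple null than in FoxA3 null. The defining neutrophil genes Ly6g and Cxcr2 stayed under 1 RPKM in every library. In the libraries labelled HNF4a null, the sum of 6 cholangiocyte markers was 107 to 205 against 14.5 in both controls. In the triple null the sums of sinusoidal endothelium (6.35 to 13.5 against 17.2 to 35.8) and stellate cell and fibroblast (6.42 to 23.3 against 24.9 to 34) markers lay below those of FoxA3 null without overlap. The erythroid list was mixed, with Alas2 lower (-4.29, limma, adjusted p = 1.69e-08) and Hbb-b1 (1.49, adjusted p = 0.00282) and Hba-a1 (1.79, adjusted p = 0.000346) higher. In liver the sum of 7 Kupffer cell markers found in the matrix was 143 to 181 against 116 and 124, and those of stellate cell and fibroblast (131 to 149 against 105 and 119), sinusoidal endothelium (118 to 137 against 111 and 116) and neutrophil markers (2.98 to 14.2 against 0.653 and 1.78) were also higher without overlap where HNF4a null is the label. The median tested gene was itself higher by 0.337 on the log2 scale there, and the sums were not corrected for this. The share of all genes without overlap was not counted. Of the endothelium markers only Eng passed (0.38, limma, adjusted p = 0.0438), while Lyve1 was at -0.27 and Fcgr2b at -0.01. So these liver sums, that of endothelium above all, do not show more than the general shift. In these bulk samples fewer cells of a type and less RNA per cell cannot be told apart, and the part of these shifts in the results that follow was not tested.

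Promoter sequence was available for 8 of the 10 genes, with 13 starts, from RefSeq (GRCm38.p6, 250 bases before to 50 after the start). Each window was searched on both strands for the forkhead letters TGTTTAC and TATTTAC, the insulin response core CAAAACA, the STAT5 letters TTCNNNGAA and the HNF4a letters CAAAGTCC, none of which contains another. Of 32851 promoters in the table, 3.65% held TGTTTAC, 3.04% TATTTAC, 6.28% CAAAACA, 8.3% TTCNNNGAA and 1.42% CAAAGTCC. Starts of 4 of the 8 genes held a match. The 250 bases before the start are shown for Igfbp1, whose promoter is a classical example of regulation by insulin, and for Igfbp2 and Igfals. Of the 10 genes these last fell most in the triple null against FoxA3 null. They lie at chr11:7197537-7197786, chr1:72824230-72824479 and chr17:24877594-24877843, all on the plus strand, and capitals mark the matched letters.
Igfbp1: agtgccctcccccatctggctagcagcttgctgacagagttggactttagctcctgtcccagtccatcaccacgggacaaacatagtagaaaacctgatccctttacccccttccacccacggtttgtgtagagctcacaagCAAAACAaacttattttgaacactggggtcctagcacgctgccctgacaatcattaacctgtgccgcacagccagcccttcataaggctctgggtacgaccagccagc
Igfbp2: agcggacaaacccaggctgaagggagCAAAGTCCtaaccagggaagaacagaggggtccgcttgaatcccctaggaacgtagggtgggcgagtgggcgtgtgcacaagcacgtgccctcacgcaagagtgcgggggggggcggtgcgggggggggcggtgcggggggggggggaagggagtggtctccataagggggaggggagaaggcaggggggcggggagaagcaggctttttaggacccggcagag
Igfals: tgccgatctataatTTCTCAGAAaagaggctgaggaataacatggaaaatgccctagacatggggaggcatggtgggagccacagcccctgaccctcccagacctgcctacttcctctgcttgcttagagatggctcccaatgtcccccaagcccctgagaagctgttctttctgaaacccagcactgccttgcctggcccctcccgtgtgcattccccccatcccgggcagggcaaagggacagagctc
The match of Igfbp1 was CAAAACA, that of the first of 2 Igfbp2 starts CAAAGTCC, and that of the first of 3 Igfals starts TTCNNNGAA. The second Igfals start (window chr17:24877981-24878280) held TGTTTAC and TTCNNNGAA, and Irs2 held CAAAACA on the minus strand. No forkhead letters were found in the printed Igfbp2 window, and none of the searched letters in the windows of Ghr, Igf1, Igfbp4 and Stat5b. These matches are a description of the letters in the windows only.

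Deleting Foxa1 and Foxa2 in hepatocytes that lack FoxA3 changed 4 of the 10 genes: Igf1 and Stat5b RNA rose, and Igfbp2 and Igfals RNA fell. The test was limma on log2(RPKM + 1), with p-values adjusted by the Benjamini-Hochberg method over 11500 genes and a threshold of 0.05. Against the 2 genes higher and 2 lower, 17.4% of all tested genes were higher and 12.3% lower in this comparison. The median log2 difference of the 10 genes was -0.01 and that of all tested genes 0.05.

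Igfbp2, a binding protein that sequesters IGFs in serum, had the largest difference. Its level was 99.4, 38.5, 57.6 and 86.4 RPKM in the triple null libraries and 486, 672, 611 and 598 in FoxA3 null. The groups were far apart, with means of 70.5 ± 27.5 (SD, n = 4) and 592 ± 77.5 (n = 4), and the FoxA3 null mean was 8.39-fold higher. On the log2 scale the difference was -3.13 (SE 0.25, adjusted p = 5.08e-07). In the ranking of all genes by mean RPKM, Igfbp2 stood at place 157 in FoxA3 null and at place 1215 in the triple null.

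Igfals encodes the acid-labile subunit of the circulating IGF complex and is a growth hormone target. Triple null libraries held 21, 16.6, 17.5 and 27.1 RPKM and FoxA3 null libraries 63.4, 64.6, 56.8 and 53.7. Every triple null value lay under every FoxA3 null value (20.5 ± 4.73 against 59.7 ± 5.24, SD, n = 4 each), a log2 difference of -1.51 (SE 0.21, adjusted p = 0.000115).

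Igf1, the hormone of the axis and itself a Stat5b target, moved the other way from Igfals. It was at 995, 898, 833 and 863 RPKM in the triple null, while FoxA3 null had 453, 509, 580 and 461, without overlap. The means were 897 ± 70.6 and 501 ± 58.5 (SD, n = 4 each), and the log2 difference was 0.84 (SE 0.12, adjusted p = 9.79e-05). In the authors' deposited table of the same comparison Igf1 was also higher, by 0.45 (adjusted p = 0.00805), a smaller value.

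Stat5b, the transcription factor that carries the growth hormone signal, rose from 11 ± 1.85 to 15.4 ± 2.13 RPKM (SD, n = 4 each), a log2 difference of 0.45 (SE 0.16, adjusted p = 0.0419). Its libraries read 14.6, 13.2, 18.2 and 15.6 RPKM in the triple null, while FoxA3 null had 9.85, 11.3, 13.5 and 9.4. The highest FoxA3 null value passed the lowest triple null value. The call did not hold without FoxA3 null library 1, 2 or 4 or triple null library 1, 3 or 4, left out in turn, with differences of 0.37 to 0.47 and adjusted p of 0.0603 to 0.111. It was also lost with median centring (0.42, adjusted p = 0.0685), with quantile normalization (0.41, adjusted p = 0.0768), without the filter on low values (0.45, adjusted p = 0.0791) and in a fit of these 2 groups alone (0.45, adjusted p = 0.0508).

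The receptor gene Ghr, whose product binds growth hormone, did not pass. It was at 136, 178, 206 and 170 RPKM in the triple null, while FoxA3 null had 265, 166, 176 and 151 (log2 difference -0.11, SE 0.18, adjusted p = 0.661). The groups overlapped, and FoxA3 null library 1 was the highest of the 15 hepatocyte libraries.

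Socs2, a feedback inhibitor that growth hormone induces, varied more between libraries of a group than between the groups. In the triple null it was at 13.1, 10.2, 3.26 and 16.9 RPKM and in FoxA3 null at 3.93, 5.1, 19.7 and 12 (log2 difference 0.14, SE 0.78, adjusted p = 0.912). In lox it was at 2.09, 63.8 and 12.4 RPKM, a 30.6-fold span, and without lox library 2 the lox mean of 26.1 became 7.24.

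Igfbp1, the insulin-repressed binding protein, was at 85.9, 67.4, 78.4 and 280 RPKM in the triple null, while FoxA3 null had 30.9, 121, 120 and 122. In each group 3 libraries lay close together and 1 stood far off. The log2 difference was 0.3 (SE 0.5, adjusted p = 0.688), and without triple null library 4 the triple null mean of 128 became 77.2.

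Igfbp4, an inhibitory binding protein with high RNA in liver, was at 834 ± 152 RPKM in the triple null, while FoxA3 null had 771 ± 36.9 (SD, n = 4 each), a log2 difference of 0.1 (SE 0.16, adjusted p = 0.687). Insr, the insulin receptor, was at 9.86, 9.09, 12.8 and 9.17 RPKM against 22.3, 11.6, 10.5 and 10.7 (log2 difference -0.34, SE 0.2, adjusted p = 0.206). Irs2, the adaptor that links that receptor to its kinases, was at 3.46, 2.98, 3.84 and 6.36 RPKM against 5.5, 8.88, 9.17 and 2.99 (log2 difference -0.51, SE 0.39, adjusted p = 0.348). All 3 overlapped between the groups.

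**Figure D1:**
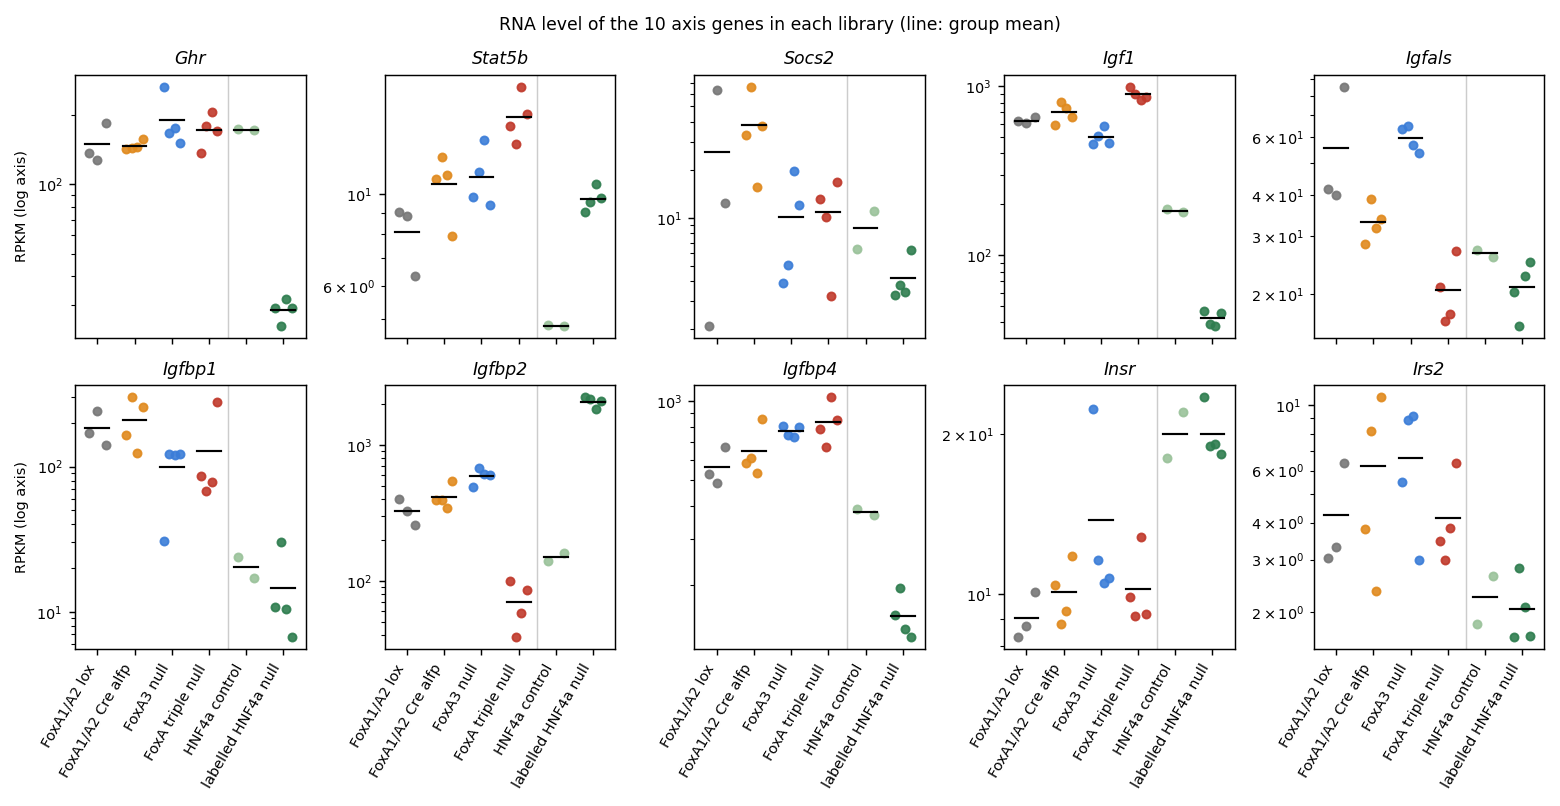
RPKM of each of the 10 genes (log axis) in every library, by group; points are libraries and the black line is the group mean. Igfbp2 is lowest in the triple null (70.5 on average) and highest in the libraries labelled HNF4a null (2083), while Socs2 and Irs2 spread widely within groups.

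Deleting Foxa1 and Foxa2 with FoxA3 present left none of the 10 genes past the threshold. In Cre alfp against lox, limma called 0 of 10 at adjusted p under 0.05 and 1 of 10, Igfals, at an unadjusted p under 0.05. Among all tested genes 2.84% were higher and 2.62% lower, so few genes passed at all. Igfals was at 28.5, 38.8, 31.7 and 33.9 RPKM in Cre alfp, while lox had 41.7, 40 and 85.2, without overlap (log2 difference -0.65, SE 0.23, adjusted p = 0.131). Over the alternative fits this difference ran from -0.83 to -0.3, and without lox library 3 the lox mean of 55.7 became 40.9. Igfbp2 was at 390, 391, 346 and 540 RPKM in Cre alfp, while lox had 398, 327 and 256 (log2 difference 0.35, SE 0.27, adjusted p = 0.558). Igf1 was at 587, 805, 743 and 659 RPKM against 619, 603 and 656 (log2 difference 0.15, SE 0.13, adjusted p = 0.602). The remaining 7 genes had adjusted p of 0.296 or more.

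The difference between these 2 effects was tested itself, as the triple null minus FoxA3 null difference less the Cre alfp minus lox difference. The deletions differ in their Cre (Tbg from an injected virus, and alfp by the label) and in residual Foxa1 as well as in FoxA3, and these cannot be told apart in this test. Igfbp2 passed with -3.48 (SE 0.37, adjusted p = 3.25e-05) and Igf1 with 0.7 (SE 0.17, adjusted p = 0.0154). Of all tested genes 8.25% were above and 6.17% below the threshold in this test, and of the 10 genes 1 was in each direction. The Igf1 value became 0.55 (adjusted p = 0.061) with quantile normalization. Igfals did not pass, at -0.87 (SE 0.31, adjusted p = 0.0793). It passed without lox library 3, at -1.21 (adjusted p = 0.00391), and with quantile normalization, at -0.99 (adjusted p = 0.0472). Stat5b was at 0.1 (SE 0.23, adjusted p = 0.797), so its differences after the 2 deletions were not shown to differ.

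**Figure D2:**
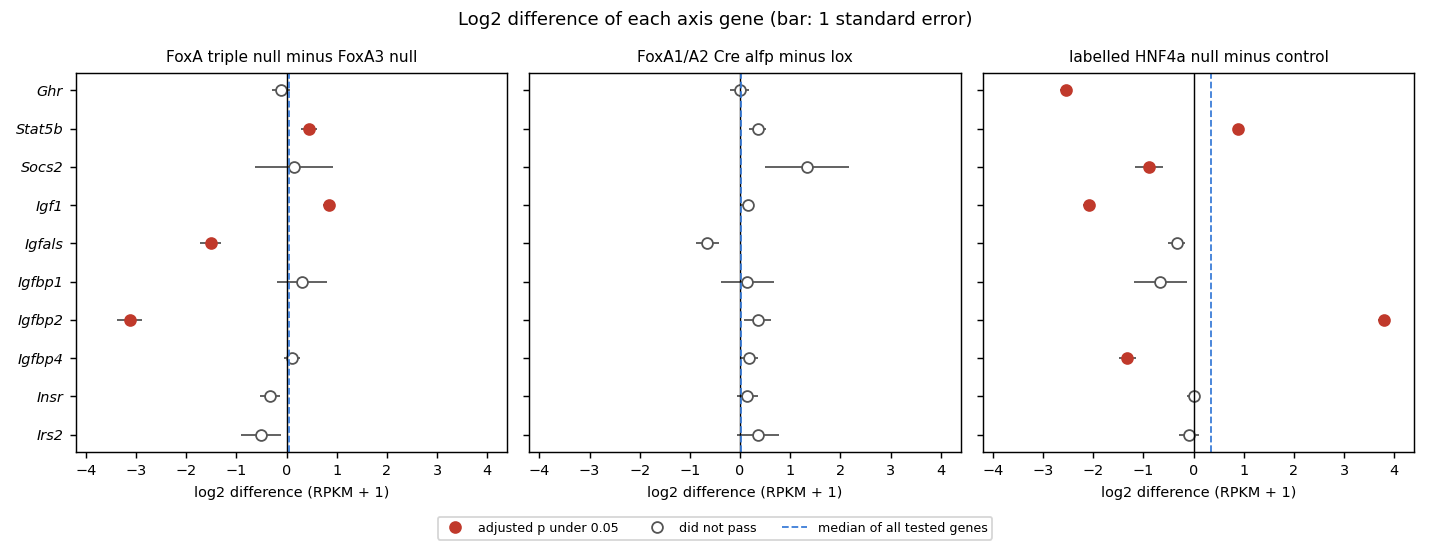
Log2 difference of each gene in 3 comparisons, with bars of 1 standard error; filled points passed at adjusted p under 0.05 and the dashed line is the median of all tested genes. Igfbp2 lies at -3.13 in the triple null and at 3.79 in the libraries labelled HNF4a null, and no gene is filled in the middle panel.

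Comparisons of the triple null with lox and with Cre alfp change FoxA3 as well. Both, and FoxA3 null against lox, cross from libraries with FoxA3 to libraries without it, so FoxA3 status and any other difference between those sets of libraries cannot be told apart. The median of all tested genes was shifted by 0.132 against lox, 0.125 against Cre alfp and 0.103 for FoxA3 null against lox, and values relative to it are given beside the fitted differences, which the p-values test. Against lox, 3 of the 10 genes were higher and 2 lower, beside 27.7% and 14.8% of all genes. Of all calls 65.1% were higher, and 51.7% with median centring.

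The triple null differed from lox by -2.26 for Igfbp2 (adjusted p = 1.94e-05), -1.33 for Igfals (0.00043), 0.52 for Igf1 (0.00485), 0.86 for Stat5b (0.00116) and 0.56 for Igfbp4 (0.0186). Relative to the median gene these were -2.4, -1.46, 0.38, 0.73 and 0.43 in the same order. None of these 5 overlapped between the groups, but they had passed the test on the same values. The share of all genes without overlap was not counted. Igfbp4 was at 781, 672, 1033 and 851 RPKM in the triple null and at 531, 491 and 667 in lox, and its call was lost without lox library 1 (0.53, adjusted p = 0.0631), lox library 2 (0.47, adjusted p = 0.0867) or triple null library 3 (0.45, adjusted p = 0.0555).

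Against Cre alfp, 2 genes were higher and 2 lower, beside 26.9% and 14.4% of all genes, and 65.1% of calls were higher (53.2% with median centring). The differences were -2.62 for Igfbp2 (adjusted p = 2.86e-06), -0.68 for Igfals (0.0194), 0.37 for Igf1 (0.0213) and 0.51 for Stat5b (0.0178), and relative to the median gene -2.74, -0.81, 0.24 and 0.38 in the same order. Only the Igfbp2 call held in each fit that left out 1 library. Igf1 was at 0.29 without Cre alfp library 1 (adjusted p = 0.0724) and at 0.32 without triple null library 1 (0.0534). Igfals was at -0.61 without Cre alfp library 2 (0.0569), -0.6 without triple null library 2 (0.058) and -0.62 without triple null library 3 (0.0559). Stat5b was at 0.39 without Cre alfp library 4 (0.0546) and at 0.43 without triple null library 3 (0.0575). With median centring Igf1 (0.26, adjusted p = 0.139) and Stat5b (0.4, adjusted p = 0.0707) did not pass, and with quantile normalization Stat5b did not (0.36, adjusted p = 0.0925). Socs2 passed, lower, in a fit of these 2 groups alone (-1.74, adjusted p = 0.0224). Igfbp1 passed, lower, without triple null library 4 (-1.35, adjusted p = 0.0294), and Igfbp4 passed, higher, without Cre alfp library 4 (0.52, adjusted p = 0.0122) or triple null library 2 (0.48, adjusted p = 0.0388), and with quantile normalization (0.36, adjusted p = 0.0465).

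FoxA3 null against lox called only Igfbp2, higher by 0.87 (adjusted p = 0.0253), or 0.76 relative to the median gene, beside 21.7% of all genes higher and 13% lower. Higher calls were 62.5% of all, and 50.6% with median centring, where Igfbp2 did not pass (0.76, adjusted p = 0.0625) and Igf1 did, lower (-0.43, adjusted p = 0.032). Igfbp2 was at 0.88 without lox library 2 (adjusted p = 0.0664), 0.7 without lox library 3 (0.0885) and 0.8 without FoxA3 null library 2 (0.0615). Without FoxA3 null library 3, Igf1 was lower (-0.4, adjusted p = 0.0231) and Insr higher (0.59, adjusted p = 0.0487). Without lox library 3, Igfals (0.53, adjusted p = 0.0361) and Igfbp4 (0.59, adjusted p = 0.0301) were higher.

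The rise of Igf1 against the groups with FoxA3 was seen in the RPKM matrix and not in the authors' deposited tables. There, Igf1 in the triple null differed by -0.09 from the undeleted control (adjusted p = 0.738) and by -0.15 from Cre alfp (adjusted p = 0.382). On the log2 scale of mean RPKM + 1 the same ratios were 0.52 and 0.36. Over 6069 genes with a mean RPKM of at least 5, the matrix minus the authors' deposited table against the undeleted control had a median of 0.19 and a range of -0.18 to 0.45 from the 5th to the 95th percentile, and Igf1 was at 0.61, outside that range. Against Cre alfp the range was -0.14 to 0.41 over 6062 genes and Igf1 was at 0.51. Against FoxA3 null the range was -0.2 to 0.41 over 6421 genes and Igf1, at 0.39, was inside it. The authors' deposited tables held the fall of Igfbp2, by 3.21 against FoxA3 null, 2.32 against the undeleted control and 2.66 against Cre alfp, as well as that of Igfals, by 1.59, 1.64 and 0.89 in the same order. In the authors' deposited table against Cre alfp, Socs2 also passed (-1.97, adjusted p = 0.00565), whereas in the matrix it was at -1.74 (SE 0.78, adjusted p = 0.0884).

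**Figure D3:**
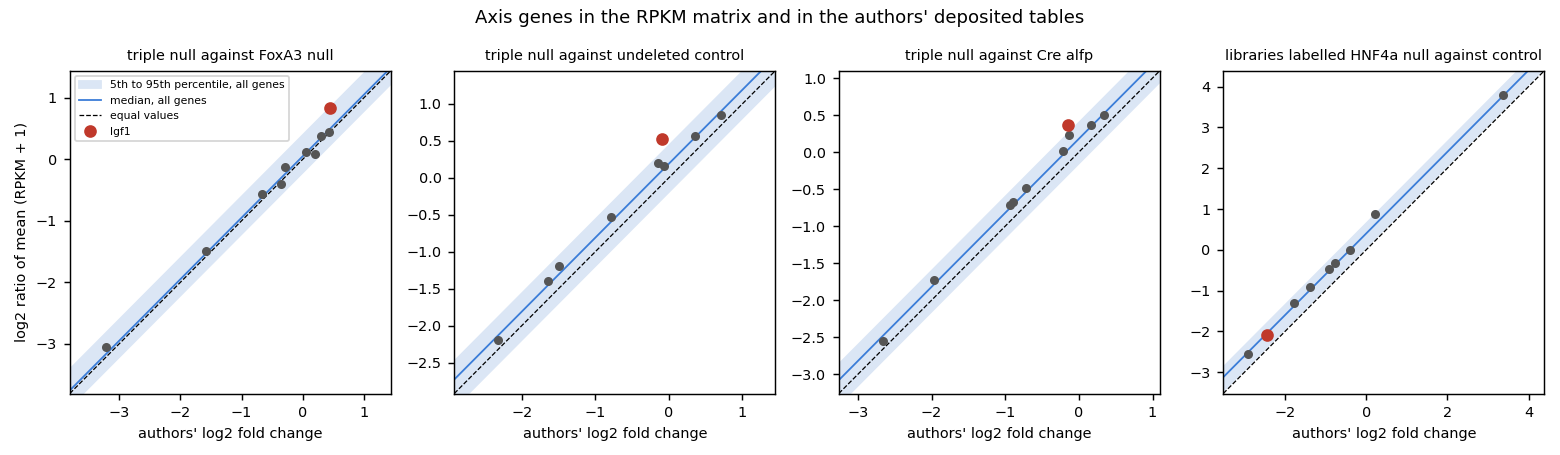
Log2 ratio of mean RPKM + 1 (vertical) against the log2 fold change of the authors' deposited tables (horizontal) for the axis genes with a mean RPKM of at least 5 in each of 4 comparisons; the blue line is the median gap and the band spans the 5th to the 95th percentile of the gap over all genes with that level. Igf1 lies above the band against the undeleted control (0.61) and against Cre alfp (0.51).

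In liver, the libraries labelled HNF4a null differed from HNF4a control in 6 of the 10 genes: Igfbp2 and Stat5b were higher, and Ghr, Igf1, Igfbp4 and Socs2 lower. Hnf4a RNA goes against the label in these libraries, so the direction is that of the labels. The median of all tested genes was itself shifted by 0.337, and of 12434 tested genes 41.1% were higher and 11.7% lower. With median centring 51.8% of the calls were higher, in place of 77.8%. Liver values rest on the shallowest libraries and on 2 controls.

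Ghr, the entry point of the axis, was at 173 and 171 RPKM in the controls, and the libraries labelled HNF4a null had 29.2, 24.2, 31.9 and 29.1. That is a 6.01-fold higher control mean and a log2 difference of -2.55 (SE 0.12, adjusted p = 1.51e-05), or -2.89 relative to the median gene. Igf1 was at 46.5, 39.1, 37.9 and 45.7 RPKM against 187 and 179 (log2 difference -2.09, SE 0.11, adjusted p = 3.09e-05; -2.43 relative to the median gene). Neither gene overlapped between the groups, and the share of all genes without overlap was not counted.

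Igfbp2 went the other way from its change in the triple null. The controls had 140 and 159 RPKM, and the libraries labelled HNF4a null 2233, 2156, 1850 and 2093, 13.9-fold higher on average (log2 difference 3.79, SE 0.12, adjusted p = 3.18e-06). Relative to the median gene this was 3.45, and among all genes Igfbp2 stood at place 438 by mean RPKM in the controls and at place 49 in the other group. Igfbp4 fell from 389 and 369 RPKM to 154, 195, 137 and 127 (log2 difference -1.32, SE 0.17, adjusted p = 0.00126).

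Stat5b was at 9.07, 9.56, 10.6 and 9.8 RPKM against 4.83 and 4.79, a log2 difference of 0.89 (SE 0.1, adjusted p = 0.00053), or 0.55 relative to the median gene. In the authors' deposited table Stat5b was at 0.22 and did not pass (adjusted p = 0.0953). Socs2 was at 3.3, 3.8, 3.41 and 6.29 RPKM against 6.36 and 11 (log2 difference -0.89, SE 0.28, adjusted p = 0.0334). This call was lost without the control library with barcode ATTCCTA (-0.54, adjusted p = 0.221), without the libraries labelled HNF4a null with barcode GAGTGGA (-0.81, adjusted p = 0.068), GGCTAC (-0.86, adjusted p = 0.0646) or GTGGCCA (-0.82, adjusted p = 0.0689), and without the filter on low values (-0.89, adjusted p = 0.107).

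Igfals, Igfbp1, Irs2 and Insr did not pass in liver. Igfals was at 20.3, 16, 22.8 and 25.1 RPKM against 27.2 and 26, without overlap (log2 difference -0.34, SE 0.17, adjusted p = 0.133), and it passed with median centring (-0.61, adjusted p = 0.0331). Igfbp1 was at 10.8, 30.3, 10.4 and 6.68 RPKM against 23.8 and 17 (log2 difference -0.66, SE 0.52, adjusted p = 0.309). It passed without the library with barcode GGCTAC, the highest of its group (-1.07, adjusted p = 0.0145), where the group mean of 14.5 became 9.27. Insr averaged 20 RPKM in both groups (± 2.3, n = 4, and ± 2.88, n = 2, SD) and Irs2 2.05 ± 0.552 and 2.24 ± 0.582. In the authors' deposited table, where 46.3% of 12244 genes passed, 8 of the 10 did, among them Igfals (-0.76, adjusted p = 2.32e-08), Insr (-0.41, adjusted p = 0.00018) and Irs2 (-0.57, adjusted p = 0.0311), all lower. That table centred on 0.011 for the median gene, where the matrix fit centred on 0.337.

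The balance of IGF binding protein RNA to Igf1 RNA was computed in each library as the summed RPKM of Igfbp1, Igfbp2 and Igfbp4 over that of Igf1, with no test. It was 1.16 ± 0.285 (SD, n = 4) in the triple null, with a range of 0.866 to 1.41, and 2.94 ± 0.319 (n = 4) in FoxA3 null, with a range of 2.52 to 3.29. Lox libraries were at 1.72 ± 0.0841 (n = 3) and Cre alfp at 1.85 ± 0.498 (n = 4). In liver it was 3.01 ± 0.0686 (n = 2) in the controls and 53.4 ± 5.23 (n = 4) in the libraries labelled HNF4a null. The triple null thus had the lowest mean and the libraries labelled HNF4a null the highest, and neither range touched that of its control group, although the triple null range overlapped that of Cre alfp. Igf1 RPKM is the divisor. Its rise in the triple null against lox and Cre alfp was not seen in the authors' deposited tables (-0.09 and -0.15), so the lower ratio against those groups rests in part on that value.

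The make-up of the binding protein RNA changed along with it. Igfbp2 gave 6.81% ± 2.52 (SD, n = 4) of the summed RPKM in the triple null and 40.4% ± 2.99 (n = 4) in FoxA3 null, where 30.4% ± 6.11 (n = 3) was seen in lox and 32.9% ± 2.06 (n = 4) in Cre alfp. In the libraries labelled HNF4a null it gave 92.6% ± 1.46 (n = 4), against 27.2% ± 2.66 (n = 2) in the controls. Igfbp4 was the most abundant of the 3 in every group but the libraries labelled HNF4a null.

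**Figure D4:**
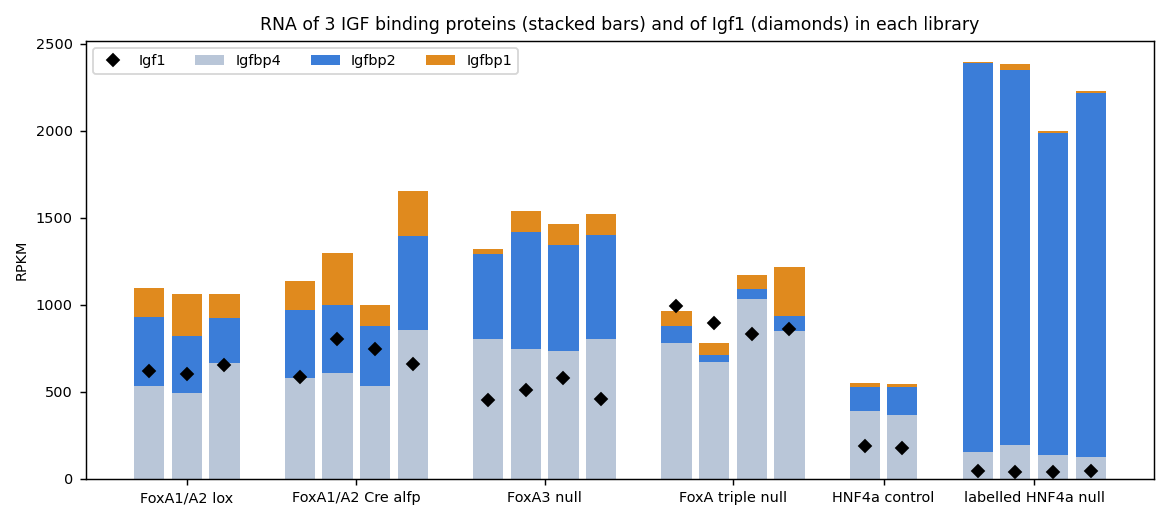
Stacked bars give the RPKM of Igfbp4, Igfbp2 and Igfbp1 and diamonds that of Igf1 in each of the 21 libraries, by group. The Igfbp2 segment is thin in the triple null (6.81% of the bar on average) and nearly fills the bars of the libraries labelled HNF4a null (92.6%), where the Igf1 diamonds lie lowest.

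Ordered by mean level, Igf1 ran from the triple null (897 RPKM) over Cre alfp (699), lox (626), FoxA3 null (501) and HNF4a control (183) to the libraries labelled HNF4a null (42.3), and only Cre alfp and lox, neighbours in that order, overlapped. Igfbp2 ran from the libraries labelled HNF4a null (2083) over FoxA3 null (592), Cre alfp (417), lox (327) and HNF4a control (150) to the triple null (70.5). Cre alfp overlapped both FoxA3 null and lox, which did not overlap each other. For Ghr the libraries labelled HNF4a null (28.6) stood apart from the other 5 groups, which overlapped as neighbours between 147 and 190 RPKM. Igfals was highest in FoxA3 null (59.7) and lox (55.7), which overlapped, and lowest in the libraries labelled HNF4a null (21.1) and the triple null (20.5), which also overlapped. Insr was on average about as high in both liver groups (20) and lower in hepatocytes (9.05 to 13.8). FoxA3 null overlapped the libraries labelled HNF4a null for Insr. Irs2, at 2.05 to 6.63, was the lowest of the 10 genes in each hepatocyte group and in liver. Levels of hepatocytes and of liver were set side by side with no test.

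Other genes of the pathway were taken from lists; these were chosen with earlier results of these data known. Of 15 growth hormone signalling genes 13 were tested in hepatocytes. In the triple null against FoxA3 null 3 (23.1%) were higher, beside 17.4% of all genes. The lower count was 0 (0 at an unadjusted p under 0.05 by limma too), beside 12.3% of all genes. The median difference was 0.1 beside 0.05 for all genes. The higher genes included Stat5a, the near relative of Stat5b (6.51 against 3.01 RPKM, log2 difference 0.93, adjusted p = 0.001), and the phosphatase Ptpn2 (11.3 against 8.07, 0.44, adjusted p = 0.00649). In Cre alfp against lox 0 of 13 passed in either direction, and 0 at an unadjusted p under 0.05. Of all genes only 2.84% were higher and 2.62% lower there. In liver 6 of 14 (42.9%, beside 41.1% of all genes) were higher. The lower count there was 0 (1 at an unadjusted p under 0.05), beside 11.7% of all genes. The median was 0.29 beside 0.34 for all genes, so the list as a whole moved about as the median gene. The prolactin receptor Prlr had the largest value (48.5 against 14.3 RPKM, log2 difference 1.67, adjusted p = 0.000791).

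Of 11 further IGF ligands, receptors, binding proteins and proteases 4 passed the filter in hepatocytes, and only Igfbp7 changed in the triple null against FoxA3 null (9.21 against 18.3 RPKM, log2 difference -1.01, adjusted p = 0.0478), beside 12.3% of all genes lower; the list's median was -0.44. In the same comparison 4 of 6 tested sinusoidal endothelium markers were lower, Clec4g (-1.29, adjusted p = 0.0108), Eng (-1.16, adjusted p = 0.0139), Fcgr2b (-0.99, adjusted p = 0.0238) and Stab2 (-0.82, adjusted p = 0.0241), and their part in the Igfbp7 value was not tested. In liver 6 were tested, with 2 higher and 2 lower, beside 41.1% and 11.7% of all genes, and a median of -0.29 beside 0.34. Igf2r, a receptor that clears IGF2, rose from 7.79 to 21.2 RPKM (log2 difference 1.34, adjusted p = 0.000126), and Igfbp3, the main carrier of IGF1 in serum, fell from 5.8 to 3.07 (-0.75, adjusted p = 0.00707).

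Of 27 insulin signalling genes, all tested, 3 were higher and 3 lower in the triple null against FoxA3 null, with a median of -0.12 beside 0.05 for all genes, of which 17.4% were higher and 12.3% lower. They included Ceacam1, which promotes insulin clearance and fell from 35.5 to 14.6 RPKM (log2 difference -1.23, adjusted p = 1.58e-05), and Trib3, an Akt inhibitor that rose from 8.16 to 19.8 (1.13, adjusted p = 0.007). Trib3 was also the only gene of this list to pass in Cre alfp against lox (10.5 against 2.2 RPKM, 1.8, adjusted p = 0.00282). Of all genes 2.84% were higher and 2.62% lower there. In liver 10 of 27 (37%) were higher and 5 (18.5%) lower, beside 41.1% and 11.7% of all genes, with a median of 0.24 beside 0.34, and Ceacam1 was again lower (2.58 against 12.3 RPKM, -1.9, adjusted p = 4.44e-05). Of 7 FoxO and insulin response genes, 1 rose (Pdk4, which restrains pyruvate oxidation, 4.93 against 1.64 RPKM, 1.19, adjusted p = 0.0149) and 1 fell (G6pc, which releases glucose, 91.9 against 255, -1.5, adjusted p = 0.0291) in the triple null against FoxA3 null. In liver 2 rose and 2 fell, and the list's median was -0.35, beside -0.24 in the hepatocyte comparison, with G6pc at 24.4 against 184 RPKM (-3.07, adjusted p = 0.00844).

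Growth hormone sets the liver level of further genes differently in the sexes, and these were described from a male-biased and a female-biased list. Of 13 tested male-biased genes 8 were lower and 2 higher in the triple null against FoxA3 null, beside 12.3% of all genes lower and 17.4% higher, with a median of -2.21 beside 0.05 for all genes. Lower by the most were the anion transporter Slco1a1 (1.41 against 162 RPKM, log2 difference -6.04, adjusted p = 9.94e-06), the steroid dehydrogenase Hsd3b5 (1.21 against 143, -6.02, adjusted p = 6.33e-09) and the urinary protein Mup20 (21.6 against 761, -4.96, adjusted p = 7.28e-05). The 2 higher ones were the fatty acid hydroxylases Cyp4a12a and Cyp4a12b, against the direction of the 8 lower ones. Serpina12, which did not pass, was also higher (4.44 against 1.69 RPKM, log2 difference 1.02, limma, adjusted p = 0.127). Of 12 tested female-biased genes 5 were higher and 0 lower (0 lower at an unadjusted p under 0.05 too), beside the same shares of all genes, with a median of 1.09. The estrogen sulfotransferase Sult1e1 was at 1123 against 4.29 RPKM (7.75, adjusted p = 9.48e-10) and the steroid hydroxylase Cyp17a1 at 118 against 4.93 (4.43, adjusted p = 2.13e-06). Members of Mup, Cyp2, Cyp4a and Sult families share reads with near-identical copies, so their single values are uncertain.

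The same lists moved in Cre alfp against lox, where none of the 10 axis genes passed and 2.84% of all genes were higher and 2.62% lower. There, 5 of 13 male-biased genes were lower and 0 higher (1 higher at an unadjusted p under 0.05), with a median of -1.55, and 7 of 12 female-biased genes were higher and 0 lower (0 at an unadjusted p under 0.05), with a median of 1.98. Hsd3b5 was at 1.24 RPKM against 115 (-5.91, adjusted p = 2.37e-07) and Sult1e1 at 16.3 against 0.14 (3.76, adjusted p = 3.39e-05). The male-biased count was 3 without lox library 2. The effect of the deletion on Hsd3b5 did not pass the test of the difference between the 2 deletions (-0.11, SE 0.48, adjusted p = 0.905), while those on Slco1a1 (-5.35, adjusted p = 0.00229) and Sult1e1 (4, adjusted p = 0.000149) did.

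In liver, where 41.1% of all genes were higher and 11.7% lower, all 13 tested male-biased genes were lower in the libraries labelled HNF4a null, with a median of -3.82 beside 0.34 for all genes, and 9 of 10 tested female-biased genes were higher, with a median of 2.93. Mup20 was at 10.2 RPKM against 1242 (-6.83, adjusted p = 3.4e-06). A further list held regulators of the growth hormone response and other genes linked to it. Of its 5 tested genes 4 were lower, among them Bcl6, a repressor that binds many Stat5 targets (0.891 against 3.42 RPKM, -1.21, adjusted p = 0.00268). The cell cycle inhibitor Cdkn1a was the 1 higher (6.49 against 1.1 RPKM, 1.83, adjusted p = 8.67e-05). In the triple null against FoxA3 null, beside 17.4% of all genes higher and 12.3% lower, 2 of the 5 were higher, Cdkn1a and Cebpb, and 1 lower, the oxidase Nox4 (2.56 against 20.1 RPKM, -2.55, adjusted p = 1.73e-07). All libraries carried the male pattern of Xist and Ddx3y.

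**Figure D5:**
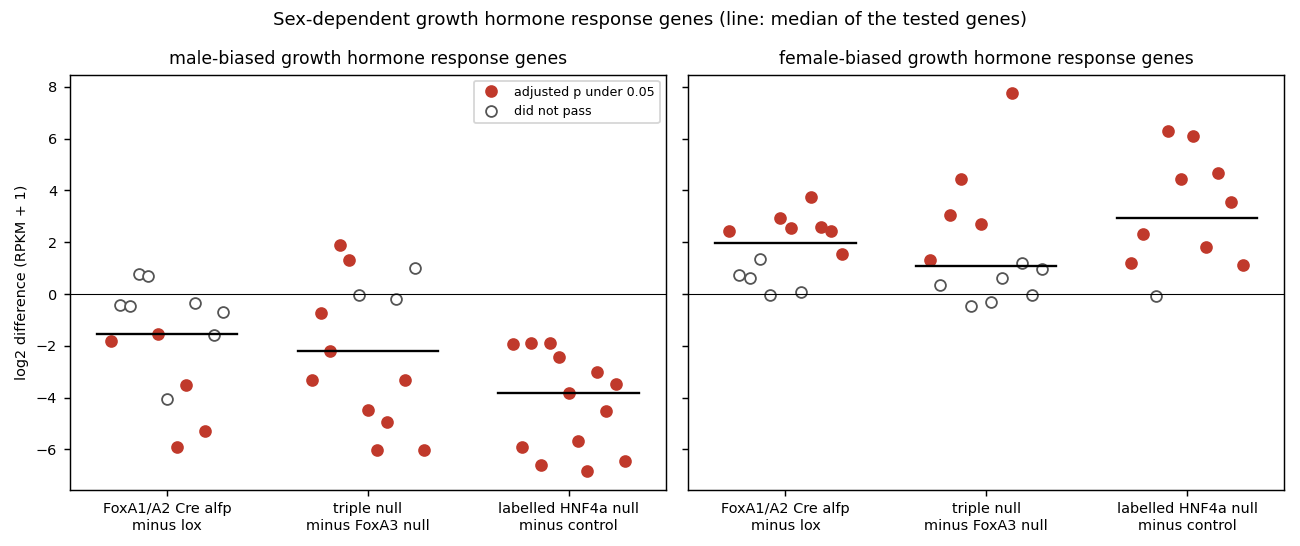
Log2 difference of each tested gene of the male-biased and the female-biased list in 3 comparisons; filled points passed at adjusted p under 0.05 and lines are medians. The male-biased medians are -1.55, -2.21 and -3.82 and the female-biased medians 1.98, 1.09 and 2.93, from left to right.

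The authors' deposited tables also set hepatoblasts and newborn hepatocytes beside adult hepatocytes, with the adult libraries not stated. In hepatoblasts 9 of the 10 genes passed, where 79.2% of all genes did in either direction. Of these 9 genes 8 were lower, and the share of all genes lower was not counted. The values of the authors' deposited table were -4.76 for Igfbp1, -4.58 for Igf1, -4.28 for Igfals, -3.47 for Ghr and -2.35 for Igfbp2, and Irs2 was the 1 higher (1.54, adjusted p = 2.42e-05). In newborn hepatocytes 7 of 10 passed in the authors' deposited table, where 63.3% of genes did. There Igfbp2 (3.17), Igfbp1 (2.62) and Irs2 (2.32) were higher than in the adult, and Igf1 (-1.53) and Ghr (-0.97) lower. Adult triple null against hepatoblast passed for 8 of 10 in the authors' deposited table, beside 81.2% of genes, with Igf1 higher by 4.5 and Ghr by 3.32. For Igfbp2 that deposited table gave 0.03 (SE 0.36, adjusted p = 0.945).

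Genes with the pattern most like each of the 10 were sought among 6951 genes with a mean RPKM of at least 5, by Pearson's r of log2(RPKM + 1) over the 15 hepatocyte libraries, as a description. Igfbp2 was followed most closely by Tmem30b (0.969), Rdh7 (0.957) and Lcat (0.950), and Igf1 by Apoc3 (0.943), Hpd (0.932) and Bscl2 (0.924). For Igfals they were Nop56 (0.944), Dnase2b (0.941) and Cyp27a1 (0.940), and for Stat5b Sdr42e1 (0.915), Adck3 (0.904) and Ap2a2 (0.899). For Igfbp4 they were Tmem97 (0.946), Gnpnat1 (0.926) and Josd1 (0.919). Insr was most like Arhgef12 (0.963), Met (0.956) and Abca6 (0.950), and Ghr like Tollip (0.935), Lin7c (0.933) and C78339 (0.921). The closest were less close for Socs2 (Csrnp1, 0.904), Igfbp1 (Ifrd1, 0.863) and Irs2 (Zfp395, 0.784). The libraries share their groups and their depth, so these values carry no test.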

How the data were processed

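The authors deposited RNA levels in RPKM, in a single matrix with 33773 gene symbols. Per the submitters' processing notes the tools were SAMtools, Cufflinks 2.2.1 and DESeq2 and the build mm9, with no role given. Of the matrix columns 21 matched a sample or group by name and 9 matched none, so these were left out. Columns of the HNF4a groups are named by barcode, with no replicate number. Log2 fold changes, their standard errors and p-values came from 7 comparison tables the authors deposited; the sign of the table against the undeleted control was turned, and unadjusted p-values of the Cre alfp table were adjusted by the Benjamini-Hochberg method.

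The test was limma 3.58.1 (R 4.3.3, eBayes with a trend) applied to log2(RPKM + 1), a scale that understates changes where levels are low. Hepatocytes (15 libraries) were fitted together, keeping genes that reached 1 RPKM in 3 or more of them, and liver (6 libraries) apart, keeping those that did so in 2 or more. Passing means an adjusted p-value under 0.05 over all tested genes. The fit was tested on simulated data. Named genes are the 10 members, up to 3 passing genes per list and comparison with the largest difference, the targeted genes and the 3 most alike genes of each member. Some genes that this rule names are not reported here. The members and lists were chosen with earlier results of these data known. Alternatives were another pseudocount (0.1), no filter, median centring, quantile normalization, robust eBayes, a minimum difference of 1, a replicate block, the 2 groups alone and leaving out each library. Peaks, protein sequences and chromatin files were not used here.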

Additional observations from a re-analysis of the deposited data

Results flagged for a closer look

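In 40 groups of 4 libraries, 5 had a library far from the other 3 by Dixon's ratio (above 0.829), where chance gives about 1 in 20. In FoxA3 null, library 1 had Igfbp1 at 30.9 RPKM, below 120 to 122 in the others, and Insr at 22.3, above 10.5 to 11.6. The same library had the highest Ghr, 265 RPKM. In the triple null, library 4 had Igfbp1 at 280 RPKM, above 67.4 to 85.9. Among the libraries labelled HNF4a null, that with barcode TAGCTTA had Socs2 at 6.29 RPKM, above 3.3 to 3.8, and that with barcode GAGTGGA had Insr at 23.4, above 18.3 to 19.1.

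The effect of deleting Foxa1 and Foxa2 differed between the FoxA3 null pair of groups and the pair with FoxA3 for Igfbp2, by -3.48 (limma, adjusted p = 3.25e-05), and for Igf1, by 0.7 (adjusted p = 0.0154). The Cre used also differs between these pairs and cannot be told apart from FoxA3. Igfbp2 was lower and Igf1 higher in all 4 triple null libraries than in all 4 FoxA3 null libraries. The share of all genes without overlap was not counted.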

How the results depend on the processing

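No value of the 10 genes reversed past the threshold. Requiring a log2 difference of at least 1 left 2 of the genes in the triple null against FoxA3 null (933 of all genes), 1 in the test between the 2 deletions (784), 2 in the triple null against lox (1556), 1 against Cre alfp (1184) and 0 in FoxA3 null against lox (827), with 274 of all genes in Cre alfp against lox and 1807 in liver. Median centring left 2 of 4 in the triple null against Cre alfp. FoxA3 null against lox, with 1 gene, gave 2 with the 2 groups alone or quantile normalization and 0 without the filter. Of all genes 380 passed in Cre alfp against lox with the 2 groups alone, where the main fit called 628. Leaving out each library gave 2 to 5 of the genes in the triple null against Cre alfp and 0 to 3 in FoxA3 null against lox, and of all genes 278 to 595 in Cre alfp against lox, 1043 to 1853 in the test between the 2 deletions, 4030 to 6119 in liver and 2368 to 4540 in FoxA3 null against lox. Where 1 liver control was left, it was assumed to vary like the other libraries. The causes were not tested. Same-numbered libraries did not deviate together more than others did. Of their 21 pair correlations 3 were over 0.1 (from -0.36 to 0.17), beside 15 of 63 for other pairs. This gives no sign that the numbers pair the libraries, but in groups this small it cannot exclude it. With a replicate block 3 of the 10 genes passed in the triple null against FoxA3 null (3089 genes), where Stat5b did not (0.45, limma, adjusted p = 0.0561). In FoxA3 null against lox 2 passed (3363), among them Igfbp1 (-1.3, adjusted p = 0.0476). The HNF4a columns carry no numbers, so no block could be fitted there.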

Other observations

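Cish, another feedback gene that growth hormone induces through Stat5b, varied within groups as Socs2 did. It was at 0.309, 19.6 and 10.5 RPKM in lox, at 19.5, 11.4, 1.03 and 22.9 in Cre alfp, at 6.47, 5.04, 18.9 and 6.39 in FoxA3 null and at 2.01, 1.79, 23.2 and 0.775 in the triple null. In lox the lowest and highest libraries were the same for Cish and Socs2, and in FoxA3 null library 3 was highest for both. In the triple null library 3 had the highest Cish and the lowest Socs2, 3.26 RPKM. Cish did not pass in any of the comparisons of hepatocyte groups, and in liver it was at 2.16 against 6.6 RPKM (limma, adjusted p = 0.0507).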
